A study of Mus musculus with 6 samples.

Results

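The genes of the mouse mitochondrial genome were followed in RNA-seq counts of whole embryos at E10.5, in mid-gestation. Members were all genes of the count table whose mouse symbol starts with mt-, which gave 37 of 55401 genes. They comprised 13 coding genes, 2 ribosomal RNA (rRNA) genes and 22 transfer RNA (tRNA) genes. Of these, 28 lie on the plus strand of the annotated sequence and 9 on the minus strand.

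Embryos were of 2 genotypes with 3 libraries each. WT embryos carried the unmodified *Igf2* locus. 5C embryos carried a tandem array of 5 extra copies of *Mir483*, a microRNA gene hosted by *Igf2*, inserted at the endogenous *Igf2* locus. The 5C allele was made by targeting in embryonic stem cells and is constitutive, with no promoter or Cre that confines it to a cell type. Per the study's methods, WT embryos were littermates of 5C embryos, and each library was made from a pool of 2 male embryos. P-values therefore measure the spread between pools of unstated litters.

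The mitochondrial genome is a small circular DNA that passes through the mother. Both of its strands are transcribed as long precursors, which are then cut, mostly at the tRNAs that punctuate them, into mRNAs, rRNAs and tRNAs. Its mRNAs encode core subunits of respiratory chain complexes I, III and IV and of ATP synthase (complex V), while every other protein needed for their synthesis is made from nuclear genes. Most mitochondrial mRNAs carry short poly(A) tails, and so they are captured in libraries primed or selected on poly(A). The rRNAs have only a few added adenines and tRNAs have none beyond their end.

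In the libraries, *Mir483* ran from 0.318 to 0.576 CPM (counts scaled to 1000000 per library) in WT against 2.56 to 5.14 CPM in 5C, so the labels matched the edit in all 6 libraries. This value counts longer transcripts through the hairpin and not the mature microRNA. Totals ranged from 6357343 counts in WT replicate 3 to 19151368 counts in WT replicate 1. All 10 markers fixed for whole embryos had 10 or more counts in every library. The 4 Y-linked transcripts summed to 4.11 CPM in WT replicate 2 and 0.0852 CPM in 5C replicate 2, against 130.1 to 211.2 CPM in the other 4 libraries, which goes against the stated pools of males. Results are therefore also given without both libraries numbered 2. The 12 markers of visceral yolk sac endoderm, none of them at 0 throughout, summed to 6860.6 CPM in WT replicate 1 and 1379 CPM in 5C replicate 3, against 202.5 to 572.8 CPM in the other libraries. The 10 markers of maternal decidua and uterine killer cells summed to 45.2 to 85.3 CPM in WT and 36.9 to 92.2 CPM in 5C, and 3 of them had 10 or more counts in every library. The part of these tissues in the levels below was not tested. In whole embryos, fewer cells rich in mitochondria and less mitochondrial RNA per cell cannot be told apart.

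Not every member could be read from these counts. A total of 15 of the 37 genes had 0 counts in all 6 libraries, which allows up to 0.157 to 0.472 CPM per library (3 counts of its total, counting error only). Among them were 6 of the 13 coding genes: *mt-Co2* and *mt-Co3* of complex IV (cytochrome c oxidase), *mt-Atp8* and *mt-Atp6* of complex V, and *mt-Nd3* and *mt-Nd4l* of complex I (NADH dehydrogenase). These 6 genes follow each other on the genome, with tRNA genes among them, between *mt-Co1* and *mt-Nd4*, which both had counts. The CPM limit above covers only reads that can be assigned to a single gene. It sets no limit on the RNA of genes whose sequence is shared with another gene, as described next.

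The sequences of these genes were compared with all other annotated transcripts of the same genome build, GRCm38. Reads were 40 bases long, so each gene was divided into all of its 40-base windows. Nuclear copies of mitochondrial DNA are a known feature of mammalian genomes, and a read that is the same in both places has no unique origin. For *mt-Co2*, 100% of 645 windows also occurred in another annotated gene. The shares were 99.9% for *mt-Co3*, 99.5% for *mt-Atp6*, 98.8% for *mt-Nd4l* and 98.1% for *mt-Nd3*. In the 7 coding genes with counts the highest share was 62.5%, for *mt-Nd4*, followed by 57% for *mt-Co1*, 12% for *mt-Nd5*, 10.1% for *mt-Nd2* and 1.4% for *mt-Cytb*. *mt-Nd1* and *mt-Nd6* shared no window. Coding genes that shared nearly all of their windows were thus the ones listed at 0, with 1 exception: *mt-Atp8* shared 2.4% of its windows and was also at 0.

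**Figure D1:**
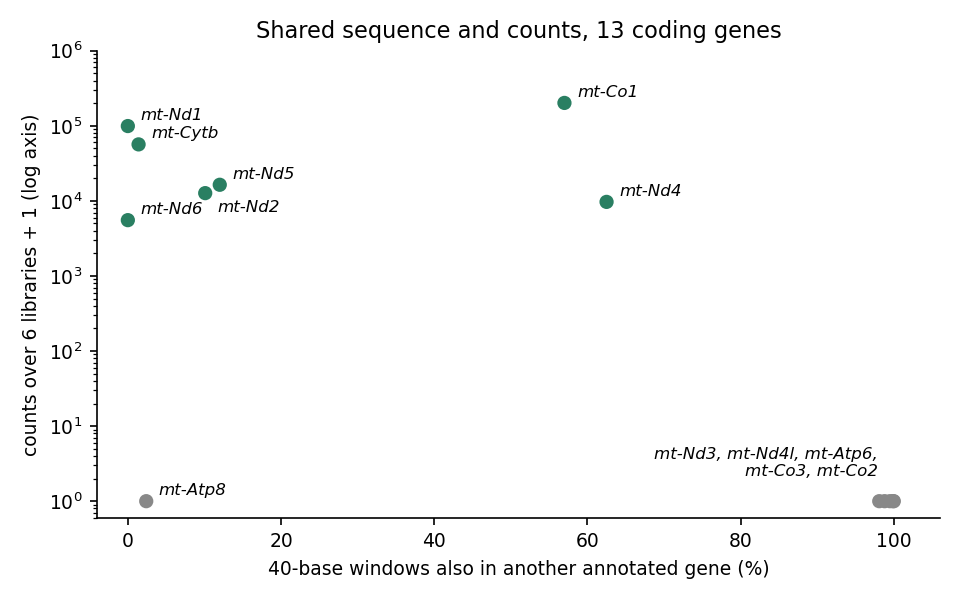
For the 13 coding genes, the share of 40-base windows that also occur in another annotated gene (x axis, percent) is plotted against counts summed over the 6 libraries plus 1 (y axis, log scale). The 7 green points are genes with counts, the 6 grey points are genes at 0, and 5 of the grey points lie above 98% while *mt-Atp8* lies at 2.4%.

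Most of the shared windows pointed to a single stretch of the minus strand of chromosome 1, chr1:24611535-24616197. It holds 7 annotated unprocessed pseudogenes in the same order as the mitochondrial genes chrM:6381-11042. Over 4149 bases compared, this stretch had 7 mismatches to the mitochondrial genome, or 99.83% identity. *Gm28439*, *Gm28437* and *Gm28661* shared the most windows, with *mt-Nd4* (837), *mt-Co3* (744) and *mt-Co2* (642) respectively, and each was 100% identical over its whole length. The following 60 bases show this for *mt-Co2* (chrM:7073-7132, plus strand) and *Gm28661* (chr1:24615446-24615505, minus strand), with no capitals because no base differs.
mt-Co2: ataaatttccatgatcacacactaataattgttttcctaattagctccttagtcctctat
Gm28661: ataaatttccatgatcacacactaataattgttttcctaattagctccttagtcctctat

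The nuclear stretch begins inside *mt-Co1*, which encodes the catalytic subunit of cytochrome c oxidase. Its edge can be read from 80 bases of *mt-Co1* (chrM:6381-6460, plus strand) beside the outermost chromosome 1 copy, *Gm29216* (chr1:24616118-24616197, minus strand), and beside *Gm13340*, a copy of the whole gene on chromosome 2 (chr2:22588515-22588594, minus strand). The last pair of genes is named here after their values were seen. Capitals mark bases that differ from *mt-Co1*.
mt-Co1: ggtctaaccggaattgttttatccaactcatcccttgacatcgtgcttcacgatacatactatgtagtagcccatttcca
Gm29216: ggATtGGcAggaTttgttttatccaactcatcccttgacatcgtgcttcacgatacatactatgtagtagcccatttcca
Gm13340: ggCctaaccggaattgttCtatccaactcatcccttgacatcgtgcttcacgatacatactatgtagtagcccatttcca
All 6 differences of *Gm29216* fell within its first 13 bases, at the end of the stretch. *Gm13340* was 97.61% identical over 1545 bases, with 37 mismatches.

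The chromosome 1 stretch covers 11 mitochondrial genes wholly and 2 partly, namely 31.8% of *mt-Co1* and 63.6% of *mt-Nd4*. The 11 genes are *mt-Ts1*, *mt-Td*, *mt-Co2*, *mt-Tk*, *mt-Atp8*, *mt-Atp6*, *mt-Co3*, *mt-Tg*, *mt-Nd3*, *mt-Tr* and *mt-Nd4l*. Over all 6 libraries these 11 genes held 1 count, in *mt-Tr*. The nuclear pseudogenes were as low: the 7 of them had 6 counts over all libraries, and 4 were at 0 throughout. *mt-Atp8* lies within this stretch but between the annotated pseudogenes, and the distance to the nuclear copy was the same on both of its sides. Most of the nuclear bases opposite *mt-Atp8* were not read here. Overlap between genes also removes part of *mt-Atp8*, since 43 of its 204 bases lie under *mt-Atp6* on the same strand. These 43 bases are shown in capitals (chrM:7912-7984, plus strand).
mt-Atp8/mt-Atp6: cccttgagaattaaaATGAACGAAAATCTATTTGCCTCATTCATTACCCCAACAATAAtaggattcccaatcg

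Expression of the readable genes was then compared between genotypes. Of the 37 genes, 10 passed the filter on low counts: 7 coding genes, both rRNA genes and 1 tRNA gene. The other 27 genes were not tested, and none of them had over 51 counts in all libraries together. No tested member was called at an adjusted p under 0.05 with a fold change over 1.5 in edgeR's quasi-likelihood test, where 0% of 16784 genes were called. At an unadjusted p under 0.05 there was 1 of 10 members, *mt-Rnr1*, against 6.02% of all genes tested. The values of the genotypes did not overlap for 1 of 10 members, *mt-Ti*, against 11.4% of all genes tested. Adjusted p-values of the 10 members lay between 0.781 and 0.974.

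The 7 coding genes kept close to the same level in both genotypes. Their log2 fold changes had a median of -0.02, beside -0.0024 over all genes tested, with 4 lower and 3 higher in 5C, and none passed the test. The 95% intervals of the fold changes of these genes all lay between 0.624-fold and 1.41-fold. The width of those intervals was set by the spread of 3 pools per genotype.

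Of complex I, the first enzyme of the chain, *mt-Nd1* (ENSMUSG00000064341, chrM:2751-3707, plus strand) was the most abundant subunit in counts. *mt-Nd1* reached 1323.9, 1129.9 and 936.1 in WT against 1153.7, 1292.6 and 1467.7 in 5C (CPM). WT replicate 3 was lowest and 5C replicate 3 highest, and the genotypes overlapped. Its log2 fold change came to 0.21, with an SE (standard error) of 0.13, and was 0.337 without WT replicate 1 and 0.081 without WT replicate 3. *mt-Nd2* (ENSMUSG00000064345, chrM:3914-4951, plus strand), a membrane subunit of the proton pump, was the steadiest member, at 167.8, 147.1 and 166.5 in WT against 155.7, 153.4 and 166.2 in 5C (CPM). Its coefficient of variation over the 6 libraries was 5.39%, and its log2 fold change was -0.02 (SE 0.07).

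*mt-Nd4* (ENSMUSG00000064363, chrM:10167-11544, plus strand), also a pump subunit, reached 127.7, 121.4 and 154.5 in WT against 104.2, 108.1 and 133.3 in 5C (CPM). The lowest WT library lay below the highest 5C library, so the genotypes overlapped. Its log2 fold change was -0.22 (SE 0.12). The unadjusted p, 0.0877, was the smallest of the coding genes and the adjusted p was 0.781. Without WT replicate 3 the log2 fold change was -0.12. *mt-Nd5* (ENSMUSG00000064367, chrM:11742-13565, plus strand), the largest complex I subunit of this genome, reached 214.7, 182.7 and 246.1 in WT against 183.2, 200.8 and 229.1 in 5C (CPM), a log2 fold change of -0.07 (SE 0.11).

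*mt-Nd6* (ENSMUSG00000064368, chrM:13552-14070) is the only coding gene on the minus strand, and its mRNA comes from the precursor that is otherwise mostly discarded. *mt-Nd6* reached 75.1, 85.5 and 57.3 in WT against 41.8, 67.1 and 90 in 5C (CPM). The lowest and the highest library were both 5C, and no other coding gene varied as much, with a coefficient of variation of 26% over the 6 libraries. Its log2 fold change was -0.14 (SE 0.24). The kit marks strand, but the sources used here do not state which strand column was deposited, so antisense reads from the plus strand cannot be separated from *mt-Nd6*.

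*mt-Cytb* (ENSMUSG00000064370, chrM:14145-15288, plus strand) encodes cytochrome b, the only subunit of complex III made in mitochondria. *mt-Cytb* reached 845.3, 606.9 and 585.2 in WT against 629.6, 727.9 and 759.9 in 5C (CPM). All 5C libraries fell inside the WT range, and the log2 fold change was 0.05 (SE 0.14). *mt-Co1* (ENSMUSG00000064351, chrM:5328-6872, plus strand), the complex IV subunit that holds the oxygen-reducing centre, reached 2698.2, 2500.8 and 2154.2 in WT against 2490.8, 2469.1 and 2655.4 in 5C (CPM). Here too the 5C libraries lay inside the WT range, with a log2 fold change of 0.05 (SE 0.09). The signs of *mt-Cytb* and *mt-Co1* turned when library counts were corrected for transcript GC content or scaled to the coding mitochondrial genes, so no direction is given for either gene. Tested members had 27.5% to 39.9% GC, against a median of 49% over all genes tested.

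**Figure D2:**
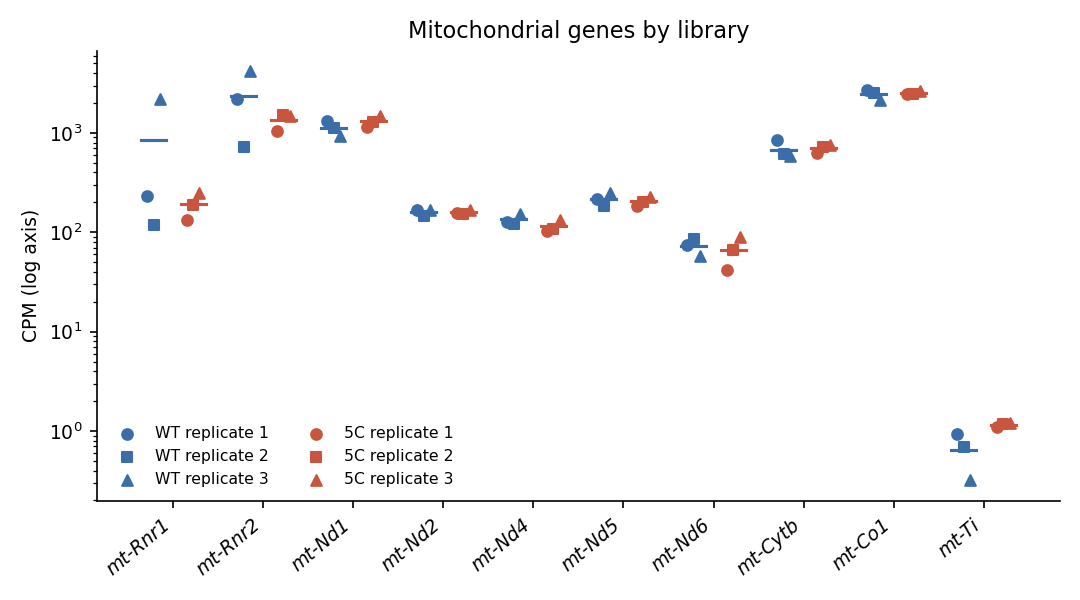
CPM of the 10 tested mitochondrial genes on a log axis, with 3 WT libraries (blue) and 3 5C libraries (red) per gene, 1 symbol per replicate number and a line at each genotype's mean. Among the 7 coding genes the widest range over libraries was that of *mt-Nd6* (2.15-fold), while *mt-Rnr1* reached 2199.7 CPM in WT replicate 3 and at most 251 CPM elsewhere.

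Levels between genes were compared per 1000 read positions that could be counted, that is, positions not shared with another annotated transcript and not over 2 mitochondrial genes of the same strand. On that scale *mt-Co1* stood highest at 3436.3 ± 264.2 CPM per 1000 positions (SD, n = 6 libraries of both genotypes). *mt-Nd1* followed at 1328.9 ± 201.6 and *mt-Cytb* at 613.3 ± 90.3. Then came *mt-Nd4* at 248.3 ± 36.4, *mt-Nd2* at 178 ± 9.59, *mt-Nd6* at 133.8 ± 34.8 and *mt-Nd5* at 130.1 ± 15.8. From *mt-Co1* down to *mt-Nd2*, the lowest library of each gene lay above the highest library of the next. *mt-Nd2* also lay above *mt-Nd5* in every library, while the range of *mt-Nd6* overlapped those of both. Per gene length instead of countable positions, *mt-Co1* over *mt-Nd1* fell from 2.61 to 1.28, and *mt-Nd4* over *mt-Nd5* from 1.91 to 0.789, which turned the order of that pair. On the scale of gene length *mt-Nd4* was the lowest of the 7 coding genes, at a mean of 90.6 CPM per 1000 bases, against 153.6 for *mt-Nd2*, 133.8 for *mt-Nd6* and 114.8 for *mt-Nd5*.

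The most abundant coding mRNAs held a nearly constant share of the coding counts. *mt-Co1* held 49.5%, 52.4% and 50.1% of all coding mitochondrial counts in WT and 52.3%, 49.2% and 48.3% in 5C. *mt-Co1*, *mt-Nd1* and *mt-Cytb* together held 85.5% to 89.8%. Less abundant genes varied more as log2 ratios to the summed coding genes. The abundant genes make up most of that sum, which by itself steadies their ratios. In CPM the coefficient of variation over the 6 libraries did not follow abundance. It was 7.69% for *mt-Co1*, 15.2% for *mt-Nd1*, 14.7% for *mt-Cytb*, 12.1% for *mt-Nd5*, 5.39% for *mt-Nd2*, 14.7% for *mt-Nd4* and 26% for *mt-Nd6*. As a log2 ratio, *mt-Nd6* ran from -6.83 in 5C replicate 1 to -5.8 in WT replicate 2. WT replicate 3 was highest in *mt-Nd4* (-4.8, against -5.54 to -5.3 elsewhere), *mt-Nd5* (-4.13, against -4.71 to -4.59) and *mt-Nd2* (-4.69, against -5.05 to -4.93). That library was lowest in *mt-Nd1* (-2.2, against -2.08 to -1.91). Relative to the summed coding genes of the same library, *mt-Nd1* was higher in 5C by 0.14 ± 0.06 on the log2 scale (SE, n = 3 and 3) and *mt-Nd4* was lower, with a difference of -0.30 ± 0.20, and both sets of values overlapped between genotypes. Without WT replicate 3 the difference of *mt-Nd4* was -0.116, and against the geometric mean of the coding genes with counts that of *mt-Nd1* was 0.235. These ratios do not depend on the library total but leave out the 6 coding genes at 0. The summed coding genes came to 4842.3 ± 579.4 CPM (WT) against 5093.2 ± 376.8 CPM (5C, SD, n = 3 each). Their difference of 0.0771 on the log2 scale had p = 0.5 in a two-sided exact permutation test, and 3 libraries against 3 cannot go below 0.1. The highest sums, 5452.7 CPM in WT replicate 1 and 5501.6 CPM in 5C replicate 3, belonged to the libraries with the highest sums of yolk sac markers, and the part of that tissue was not tested.

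The mitochondrial rRNAs varied far more than the mRNAs. *mt-Rnr1* (ENSMUSG00000064337, chrM:70-1024, plus strand), the 12S rRNA of the small ribosomal subunit, reached 234.4, 117.9 and 2199.7 in WT against 132.3, 188.7 and 251 in 5C (CPM). WT replicate 3 stood 8.76-fold above the next highest library, while the other 5 libraries lay within 2.13-fold of each other. *mt-Rnr2* (ENSMUSG00000064339, chrM:1094-2675, plus strand), the 16S rRNA of the large subunit, reached 2217.5, 726.7 and 4179.9 in WT against 1046.7, 1505.2 and 1466.3 in 5C (CPM). The highest and the lowest library of both rRNAs were WT, and all 5C libraries of *mt-Rnr2* fell between them.

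The fitted log2 fold change of *mt-Rnr1* was -2.15 (SE 0.88). Its unadjusted p of 0.0354 became 0.781 after adjustment in edgeR's quasi-likelihood test. It rested on WT replicate 3: without that library it was 0.0997, and the sign turned. For *mt-Rnr2* the log2 fold change was -0.83 (SE 0.47), with an unadjusted p of 0.109, and -0.15 without WT replicate 3. Without both libraries numbered 2 it was -2.66 for *mt-Rnr1* and -1.35 for *mt-Rnr2*, and neither was called. A model on log values, limma-voom, gave -0.98 for *mt-Rnr1*. In the test without a count filter *mt-Rnr1* and *mt-Rnr2* passed both thresholds, with adjusted p-values of 3.24e-120 and 3.47e-17, among 319 of 33139 genes called in all. Scaled to the coding mitochondrial genes, *mt-Rnr1* alone of the members was called, with an adjusted p of 0.00294, among 83 of 16784 genes called in all.

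**Figure D3:**
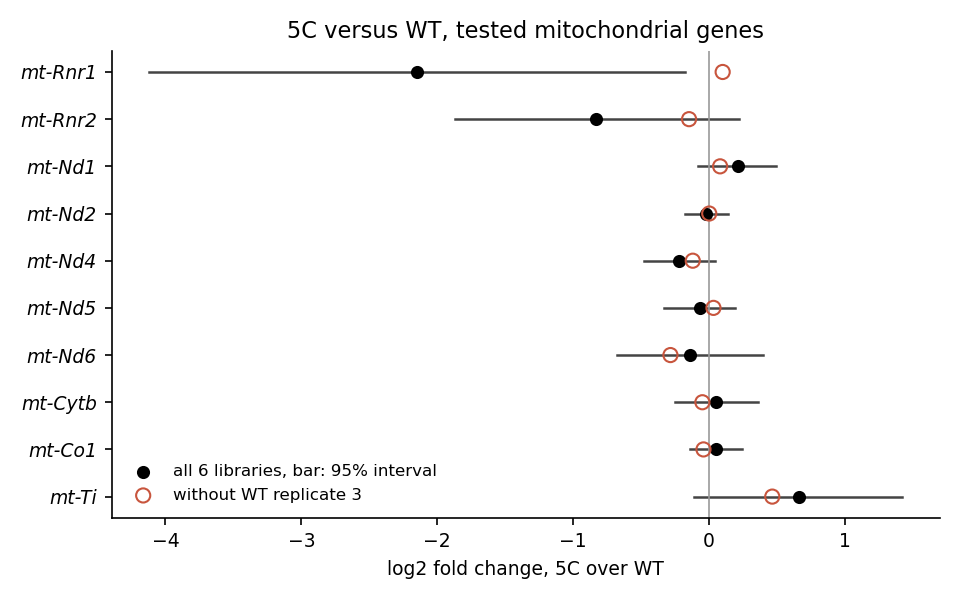
Log2 fold changes of 5C over WT for the 10 tested mitochondrial genes (x axis), with bars for 95% intervals from edgeR's quasi-likelihood fit and open circles for the fit without WT replicate 3. Omitting that library moved *mt-Rnr1* from -2.15 to 0.0997 and *mt-Rnr2* from -0.83 to -0.15, while the coding genes moved by less.

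WT replicate 3 also differed from the rest in the balance of its rRNAs. It held 52.6 *mt-Rnr1* counts per 100 *mt-Rnr2* counts, against 10.6 to 17.1 in the other 5 libraries. Of its mitochondrial counts, 59.7% were rRNA, against 15% to 31% elsewhere. Summed over both rRNA genes, WT libraries held 2451.9, 844.6 and 6379.6 CPM and 5C libraries 1179, 1693.9 and 1717.3 CPM. The log2 difference of -0.649 had p = 0.5 in a two-sided exact permutation test, and was 0.0676 without WT replicate 3. WT replicate 3 was the library with the fewest counts, and its coding mitochondrial genes were the lowest at 4299.9 CPM.

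Other RNAs without a long poly(A) tail did not single out WT replicate 3. *Rn7sk*, a small nuclear RNA that restrains transcription elongation, reached 14535.3, 10119.2 and 12935.3 in WT against 9149.2, 10879.9 and 11633 in 5C (CPM). *Rpph1*, the RNA of nuclear RNase P, measured 1499.1 CPM in that library against 1477.8 and 1781.1 CPM in the other WT libraries. The 70 replication-dependent histone genes, whose mRNAs end in a stem-loop, summed to 11212.4 to 12395.3 CPM over all 6 libraries. The 354 nuclear genes annotated as rRNA ran in a different order from the mitochondrial rRNAs. Of these 354, 114 had counts but only 3 had 10 or more counts in every library. They summed to 733.5, 4925.6 and 835.1 in WT against 1198.3, 2678.6 and 4494.4 in 5C (CPM), so WT replicate 2, lowest in *mt-Rnr1* and *mt-Rnr2*, was highest in nuclear rRNA. Whether the capture of RNA in library preparation took part in these differences was not tested.

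**Figure D4:**
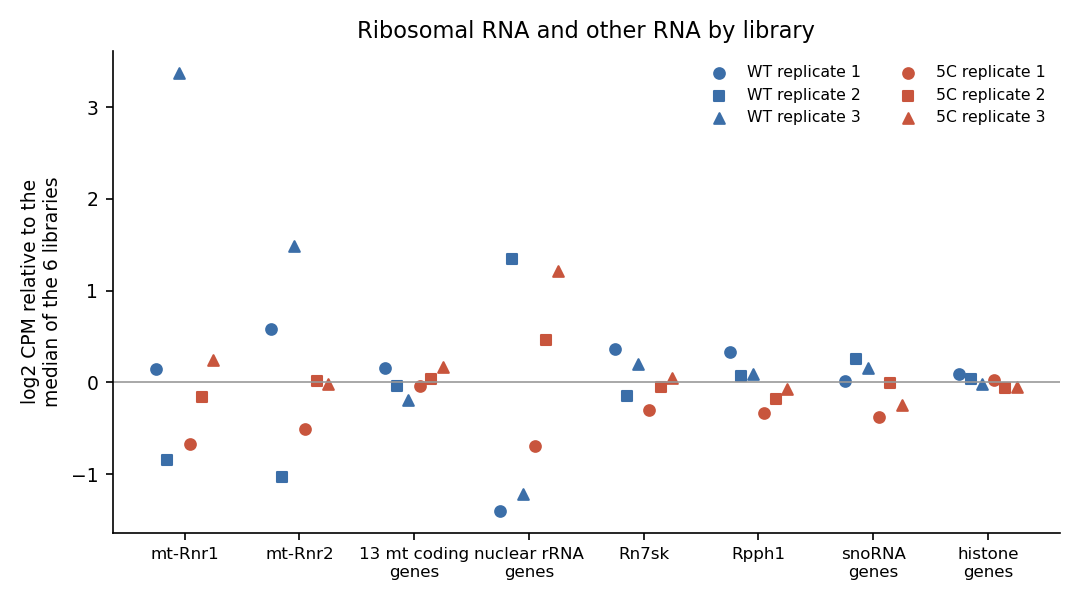
For each RNA class, log2 CPM of each library relative to the median of the 6 libraries (y axis), with WT in blue, 5C in red and 1 symbol per replicate number. WT replicate 3 stands apart in *mt-Rnr1* and is highest in *mt-Rnr2*, but not in the 13 coding genes, nuclear rRNA, *Rn7sk*, *Rpph1*, snoRNA or histone genes.

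The share of all counts on the mitochondrial genome was 0.789%, 0.56% and 1.06% in WT and 0.603%, 0.678% and 0.717% in 5C. The means were 0.802% ± 0.248 and 0.666% ± 0.0579 (SD, n = 3 each), with p = 0.5 in a two-sided exact permutation test. The lowest and the highest share were both WT, and the genotypes overlapped. Without WT replicate 3 the difference shrank from -0.135 to -0.00838 percentage points. For coding genes alone the share was 0.482% ± 0.0597 in WT and 0.512% ± 0.0319 in 5C (SD, n = 3 each), the opposite direction, with p = 0.4 in the same exact permutation test.

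Transfer RNAs, which carry amino acids to the mitochondrial ribosome, were close to absent from these libraries. The 22 genes together had 248 counts, or 0.0441% of all mitochondrial counts. Counts were found for 13 of them, and *mt-Ti* (isoleucine, 77 counts), *mt-Tm* (methionine, 51 counts) and *mt-Tp* (proline, 46 counts) held 70.2%. No other tRNA gene had over 15 counts in all libraries together. The genes of those 3 tRNAs are shown on the strand of each gene, with capitals for bases that also lie under a neighbouring gene (chrM:3706-3774, plus; chrM:3845-3913, plus; chrM:15356-15422, minus).
mt-Ti: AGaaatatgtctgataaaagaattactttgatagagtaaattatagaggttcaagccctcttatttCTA
mt-Tm: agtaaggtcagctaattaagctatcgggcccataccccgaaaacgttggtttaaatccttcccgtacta
mt-Tp: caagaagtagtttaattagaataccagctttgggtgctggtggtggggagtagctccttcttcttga

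*mt-Ti* starts inside the end of *mt-Nd1*, and *mt-Tm* ends where *mt-Nd2* begins, so reads here may come from unprocessed precursors as well as from tRNAs. *mt-Ti* had 18, 8 and 2 counts in WT and 18, 14 and 17 counts in 5C. In CPM these were 0.942, 0.685 and 0.318 in WT and 1.09, 1.19 and 1.21 in 5C, with the lowest 5C library above the highest WT library. WT replicate 3 lay under the 0.472 CPM that 3 counts make up there. Its log2 fold change of 0.66 (SE 0.34) did not pass edgeR's quasi-likelihood test, with p-values of 0.0838 before and 0.781 after adjustment. The gene passed the low-count filter through its 5C counts, so its higher values in 5C are not read as a result. *mt-Tm* had 11, 13 and 7 counts in WT and 8, 7 and 5 counts in 5C, and *mt-Tp* had 7, 9 and 2 counts in WT and 7, 9 and 12 counts in 5C. Neither of the latter passed the filter. *mt-Tw* did not pass it either, with 6, 3 and 1 counts in WT and 0, 1 and 0 counts in 5C. Its few counts also left the genotypes without overlap in CPM, in the direction opposite to *mt-Ti*. Summed over the 22 genes, tRNAs came to 3.07 ± 0.465 CPM (WT) against 3.11 ± 0.414 CPM (5C, SD, n = 3 each), with p = 0.9 in a two-sided exact permutation test.

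Of the 17 tRNA genes outside the stretch copied on chromosome 1, 12 had counts, whereas 1 of the 5 inside it did, with 1 count. By strand, 9 of 14 plus-strand tRNA genes and 4 of 8 minus-strand tRNA genes had counts, with 178 and 70 counts in all. *mt-Ta*, *mt-Tn* and *mt-Ty*, which lie together on the minus strand between *mt-Nd2* and *mt-Co1*, were at 0 in every library, whereas *mt-Tc*, inside the same cluster, had 9 counts.

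Nuclear genes that build and read the mitochondrial genome were examined as 10 lists holding 155 genes, of which 150 were tested. None was called, and 5 of 150, or 3.33%, had an unadjusted p under 0.05, against 6.02% of all genes tested, with 3 lower and 2 higher in 5C. The median log2 fold change over all 150 genes was 0.00, with 75 lower and 75 higher. Genotypes did not overlap for 19 of the 150, or 12.7%, against 11.4% of all genes tested. By list this share was uneven, in lists of 9 to 22 tested genes. It was 36.4% for translation factors (4 of 11) and 33.3% for replication and nucleotide supply (4 of 12). It was 0% for RNA modification, mitochondrial mass and the stress response. Adjusted p-values in edgeR's quasi-likelihood test were 0.781 or above for every nuclear gene named here, and the values below are given with unadjusted p.

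Factors for transcription of the genome and its termination (12 of 12 tested) had a median of 0.09, the highest of the 10 lists, with 1 gene at an unadjusted p under 0.05. *Tfb1m*, which methylates the 12S rRNA, reached 20.9, 24.7 and 20.7 in WT against 24.9, 26.3 and 26.8 in 5C (CPM), a log2 fold change of 0.23 (unadjusted p of 0.0475). *Tfam*, which packs the DNA and starts transcription, had WT values of 108, 124 and 113 CPM and 5C values of 126, 128 and 124 CPM, with a log2 fold change of 0.13 (unadjusted p of 0.0959). *Mterf1a*, a termination factor, had a log2 fold change of 0.37 (unadjusted p of 0.106). Genes for replication and nucleotide supply (12 of 12 tested) had a median of -0.02 and none under 0.05. The smallest p-values in that list were those of *Mpv17* (-0.18), *Rrm2b* (0.18), a subunit of the ribonucleotide reductase used outside S phase, and *Endog* (-0.25), a mitochondrial nuclease.

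Factors for cleavage, polyadenylation, stability and decay of mitochondrial RNA (19 of 20 tested) had a median of 0.03, and 2 of its genes, both lower in 5C, had an unadjusted p under 0.05. *Ptcd1*, a pentatricopeptide protein tied to tRNA and 16S rRNA maturation, reached 30, 31.6 and 31.4 in WT against 28.1, 27.3 and 24.1 in 5C (CPM), a log2 fold change of -0.22 (unadjusted p of 0.0382). *Tbrg4*, also called FASTKD4, which stabilises a set of mitochondrial mRNAs, reached 61.6, 59.1 and 59.5 in WT against 55.5, 52.3 and 54.1 in 5C (CPM) (-0.15 on the log2 scale, unadjusted p of 0.048). Each 5C library lay below each WT library in both genes, yet neither passed the test. *Pnpt1*, the exonuclease of the RNA degradosome, followed with 0.10 (unadjusted p of 0.223).

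Translation of the mitochondrial mRNAs was covered by 3 lists with no gene at an unadjusted p under 0.05. Enzymes that modify mitochondrial tRNAs and rRNAs (18 of 18 tested) had a median of -0.01, with the smallest p-values in *Trmt5* (0.15), *Trmt61b* (0.22) and *Pus1* (-0.13). Aminoacyl-tRNA synthetases (19 of 19 tested), which charge the tRNAs, had a median of -0.02, with 11 lower and 8 higher in 5C. Their smallest p-values, not their largest changes, were those of *Fars2* (-0.20), *Sars2* (-0.14) and *Tars2* (-0.09). Translation factors (11 of 11 tested) had a median of 0.05, with the smallest p-values in *Mtif2* (0.16), *Taco1* (-0.17) and *Mrrf* (0.10). *Taco1* is an activator of *mt-Co1* translation, and measured 19.1 ± 3.36 CPM (WT) against 17 ± 1.08 CPM (5C, SD, n = 3 each).

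Regulators of mitochondrial biogenesis (12 of 13 tested) had a median of -0.01, and 2 of them passed an unadjusted p under 0.05 in opposite directions. *Pprc1*, a coactivator related to PGC-1, reached 47.4, 45.7 and 54 in WT against 40.4, 39.8 and 36.3 in 5C (CPM). Its log2 fold change of -0.33 (SE 0.09) had the smallest unadjusted p of the 150 genes (0.00433), while its adjusted p in edgeR was 0.781. *Gabpa*, the DNA-binding subunit of nuclear respiratory factor 2, reached 111, 118 and 113 in WT against 121, 126 and 143 in 5C (CPM) (0.19 on the log2 scale, unadjusted p of 0.0393). Both genes had genotypes that did not overlap. *Prkaa2*, a catalytic subunit of the energy sensor AMPK, followed at -0.25 (unadjusted p of 0.136).

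Nuclear subunits that assemble with the mitochondrial ones in complexes I, III, IV and V (22 of 22 tested) had a median of -0.01, with 11 lower, 11 higher and none at an unadjusted p under 0.05. *Cox6c* of complex IV measured 94.8 ± 5.87 CPM (WT) against 105 ± 1.17 CPM (5C, SD, n = 3 each), which was 0.14 on the log2 scale. *Atp5h* of complex V (0.18) and *Cyc1* of complex III (-0.17) followed. Proteins used to gauge mitochondrial mass (16 of 16 tested) had a median of -0.04, with 10 lower and 6 higher in 5C. Their smallest p-values were those of *Tomm40* (-0.17), *Hspe1* (-0.15) and *Mdh2* (-0.16). Genes of the mitochondrial unfolded protein and integrated stress response (9 of 12 tested) had a median of 0.05, and none had an unadjusted p under 0.05. Their smallest p-values were those of *Atf4* (0.09), *Asns* (0.14) and *Trib3* (0.48). The medians of the nuclear partners and of the 7 coding mitochondrial genes thus lay within 0.02 of each other and of 0 on the log2 scale.

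**Figure D5:**
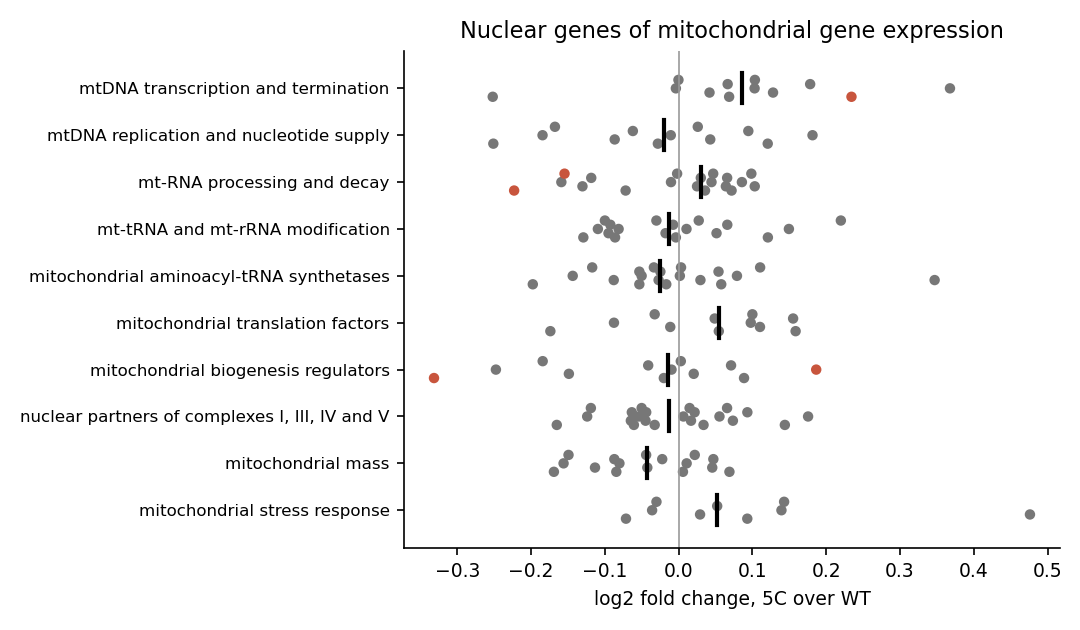
Log2 fold changes of 5C over WT (x axis) for the tested genes of 10 nuclear lists of mitochondrial gene expression (y axis). Each point is a gene, red points have an unadjusted p under 0.05, black bars are list medians, which run from -0.04 to 0.09, and none of the genes was called.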

How the data were processed

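Whole-embryo RNA of 3 WT and 3 5C pools was made into TruSeq Stranded mRNA libraries. Per the study's methods, the authors aligned single-end reads of 40 bases to GRCm38 with STAR, which also gave the gene counts. The deposited counts are raw whole numbers per Ensembl gene, unfiltered and not normalized. GENCODE (GRCm38) supplied symbols and positions for 55141 of 55401 identifiers.

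From the counts, edgeR 4.0.16 in R 4.3.3 was run on the whole table: filterByExpr, trimmed mean of M values (TMM), two-sided quasi-likelihood F-test (legacy form), Benjamini-Hochberg adjustment over 16784 genes. CPM used TMM-scaled totals. Intervals at 95% used the moderated degrees of freedom. On simulated counts, 94% of 200 genes changed 4-fold among 16534 were recovered, with 7.39% false calls. Those counts were drawn from the fitted spread of each gene, so single outlying libraries were not modelled. In the real counts *Mir483* itself was not called, at a log2 fold change of 3.05. Its unadjusted p was 1.01e-05 and its adjusted p 0.169 in edgeR's quasi-likelihood test. Ratios to coding genes had 0.5 counts added.

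The members and lists were chosen with earlier results of these data known. Of the 37 members, all 13 coding and 2 rRNA genes were named, but only some of the 22 tRNA genes. Also named were *Mir483*, the 3 genes of smallest p in each nuclear list and the 3 pseudogenes sharing most windows. Other RNAs and pseudogenes were added after values were seen. Windows could be compared with annotated transcripts only. All pairs of libraries differed by more than sampling noise (chi-square per gene at least 5.26). Genotype and replicate number came from the sample titles. Alternatives were other scalings, count filters, DESeq2 1.42.0, limma-voom (limma 3.58.1), other edgeR forms, GC content offsets, a replicate block and each library left out.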

Additional observations from a re-analysis of the deposited data

How the results depend on the processing

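The count of mitochondrial genes called stayed at 0 in each alternative but these: it was 2 without a count filter, where 319 of 33139 genes were called in all, and 1 when libraries were scaled to the 13 coding mitochondrial genes, where 83 of 16784 were. Leaving out each library gave 0 throughout. Ratios per gene moved with the positions used: *mt-Co1* over *mt-Nd1* was 2.92 with positions counted without strand and 1.28 per gene length, and *mt-Nd4* over *mt-Nd5* was 0.789 per gene length. Signs turned as follows. Leaving out each library, the log2 fold change ranged from -2.67 to 0.0997 for *mt-Rnr1*, -0.0763 to 0.0185 for *mt-Nd2*, -0.0415 to 0.126 for *mt-Co1*, -0.17 to 0.0319 for *mt-Nd5*, -0.43 to 0.107 for *mt-Nd6* and -0.0495 to 0.245 for *mt-Cytb*. For *mt-Co1* it was -0.0202 with the GC content offset and -0.0207 scaled to the coding genes. For *mt-Cytb* the same settings gave -0.0289 and -0.0099, and -0.0427 resulted without both libraries numbered 2. The same ranges were -1.25 to -0.15 for *mt-Rnr2*, 0.081 to 0.337 for *mt-Nd1*, -0.338 to -0.12 for *mt-Nd4* and 0.465 to 1.07 for *mt-Ti*, with no turn of sign. The cause was not tested.

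Same-numbered pools deviated together with correlations from -0.174 to 0.202, against -0.199 to 0.307 for differently numbered pools. With so few pools these ranges cannot decide whether replicate numbers pair the samples. With the replicate block 0 mitochondrial genes were called, and *mt-Rnr1* had a log2 fold change of -1.07. With the replicate block and the GC content offset together, *mt-Co1* turned to -0.0115 and *mt-Cytb* to -0.0029. In the nuclear lists 0 genes were called under each alternative run on them, and their median kept within -0.0197 and 0.0326 over the fits that left out a library.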

Other observations

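*Gm13340*, the chromosome 2 copy of *mt-Co1*, is described here because of its values. It had 44, 27 and 14 counts in WT and 26, 18 and 19 counts in 5C, against 13535 to 51551 counts of *mt-Co1*. Its counts came to 0.0854%, 0.0925% and 0.103% of those of *mt-Co1* in WT and to 0.0631%, 0.0621% and 0.0508% in 5C, without overlap between genotypes. The log2 fold change came to -0.62 and failed edgeR's quasi-likelihood test (unadjusted p of 0.0164, adjusted p of 0.781). *Rpph1* also had genotypes that did not overlap, at 1477.8 to 1781.1 CPM in WT and 1121.5 to 1347.7 CPM in 5C. This was -0.36 on the log2 scale (unadjusted p of 0.00439, adjusted p of 0.781 in edgeR's quasi-likelihood test). CPM of the genotypes did not overlap for 11.4% of all genes tested. Summed snoRNA genes did not overlap either (883.1 to 1043.3 CPM in WT, 674.1 to 870.3 CPM in 5C), while summed snRNA genes did. Markers of cardiomyocytes, cells rich in mitochondria, summed to 591.4 to 779.1 CPM in WT and 510.3 to 570.9 CPM in 5C. All 10 of these markers had negative log2 fold changes, with a median of -0.19, 4 had an unadjusted p under 0.05 (40%, against 6.02% of all genes tested) and none was called. The 10 markers of primitive erythroid cells had a median of 0.09 and none under 0.05. All 12 markers of visceral yolk sac endoderm, whose sum was highest in WT replicate 1, had negative log2 fold changes, with a median of -2.12 and 2 under 0.05, or 16.7%. The 8 tested markers of maternal decidua and uterine killer cells had a median of 1.0, with 3 lower and 5 higher in 5C. Of the 8, 3, or 37.5%, had an unadjusted p under 0.05, all higher in 5C. None of these markers was called.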
